A study of Mus musculus with 38 samples.

Results

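A set of 10 genes of the Notch pathway, a system of cell contact signalling that sets hair cells apart from supporting cells in the developing cochlea, was followed in explants of the mouse cochlea separated into an organ of Corti (OC) fraction and a spiral ganglion (SG) fraction. They were the ligands Jag1, Jag2 and Dll1, the receptor Notch1, the glycosyltransferase Lfng and the transcriptional repressors Hes1, Hes5, Hey1, Hey2 and Heyl. The genes were chosen by symbol, with earlier results of these data known. Every probe of the bead array that carries one of these symbols was read, which gave 12 probes of 25697 and 10 genes of 16593. Hes5 and Hey2 had 2 probes each and the other 8 genes had 1 each. Hes5 probe 1 and Hey2 probe 1 are the probes of higher mean signal.

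The explants came from early postnatal C57BL/6 mice, for which the labels name no engineered allele, and were either exposed to kainate (KA), an agonist of glutamate receptors that destroys the contacts of auditory neurons with hair cells, or left untreated as controls (CTRL). After 5, 24 or 72 h in culture each explant was cut into its OC and SG fractions. For OC, control explants gave 3, 4 and 3 arrays at the 3 times in turn and kainate explants 4, 2 and 3. For SG, control explants gave 4, 2 and 3 arrays and kainate explants 4, 3 and 3, which made 38 arrays in 12 groups. The fractions were mixtures of cell types cut by hand, so fewer cells of a type and less RNA per cell cannot be told apart. The labels number the arrays of a group as replicates and do not say whether these came from separate litters, so p-values measure the spread between these samples.

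In the Notch pathway a ligand on the surface of one cell binds a receptor on its neighbour, the receptor is cleaved, and its inner part enters the nucleus, where with the DNA-binding protein RBPJ it turns on genes of the Hes and Hey families. In the sensory epithelium, hair cells carry Jag2 and Dll1 and the adjoining supporting cells carry Notch1 and answer with Hes and Hey genes, which block the hair cell programme, while Jag1 is a ligand of the supporting cells themselves. Loss of this signal in young cochleae lets supporting cells turn into hair cells, and the signal is known to decline as the organ matures.

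The values are log2 signals that were quantile normalized between all arrays, and a log2 difference of 1 is a 2-fold change in signal. A probe was called above background on an array at a detection p under 0.01, which compares its signal with control beads. Each array held 10043 to 12171 such probes, the array medians of the raw signal ran from 191 to 284, and replicates of a group correlated with an r of 0.981 to 0.994. Groups of 2 to 4 arrays limit what can be resolved. The tissue labels were checked in controls against hair cell markers, of which 14 of 17 were lower in SG and 1 was higher (median log2 difference -1.63), and supporting cell markers, of which 10 of 17 were lower and 4 were higher (median -0.579). Of 19 neuron markers 10 were higher in SG and 4 were lower (median 0.402). Their mean log2 signal in controls was 9.68 in SG and 9.05 in OC at 5 h, 8.97 and 8.95 at 24 h, and 8.76 in SG and 8.90 in OC at 72 h, where SG no longer lay above OC. The hair cell markers Atoh1 and Strc and the supporting cell marker Fgf20 were not above background in any group. The array of SG 24 h control replicate 2 stood apart, with a mean r with the OC arrays of 0.730 where the other SG arrays had 0.430 to 0.603, and the counts of members called in SG at 24 h are given with and without it.

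Promoter sequence was at hand for 7 of the 10 genes (RefSeq, GRCm38.p6, windows of 300 bases around a start site), while those of Hes1, Hey1 and Heyl were not analysed here. The start site of a window need not be the outer end of the gene. That of Hes5 begins at 154960673, inside the annotated gene, which begins at 154960626. The core of the RBPJ site, TGGGAA on either strand, was present in the windows of Hes5, Hey2 and Lfng and in 25.6% of all 32851 windows. The longer form GTGGGAA was present in the same 3 genes of 7 and in 6.38% of all windows. Hes5 was the member that changed most with time in culture, while Hey2 probe 1 and Lfng separated the tissues on all arrays. Windows without TGGGAA are not shown. The promoters shown are those of the 3 genes with a match. Each runs 5′ to 3′ from 250 bases before the start to 10 bases after it, with matches to TGGGAA, or to TTCCCA where the match is on the other strand, in capitals. Hes5 lies at chr4:154960673-154960932 on the plus strand, Lfng at chr5:140607091-140607350 on the plus strand and Hey2 at chr10:30842774-30843033 on the minus strand.
Hes5: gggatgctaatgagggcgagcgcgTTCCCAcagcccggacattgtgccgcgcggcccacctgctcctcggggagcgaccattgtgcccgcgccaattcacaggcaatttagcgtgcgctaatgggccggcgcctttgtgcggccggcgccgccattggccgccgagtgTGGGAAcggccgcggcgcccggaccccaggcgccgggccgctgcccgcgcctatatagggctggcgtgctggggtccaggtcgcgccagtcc
Lfng: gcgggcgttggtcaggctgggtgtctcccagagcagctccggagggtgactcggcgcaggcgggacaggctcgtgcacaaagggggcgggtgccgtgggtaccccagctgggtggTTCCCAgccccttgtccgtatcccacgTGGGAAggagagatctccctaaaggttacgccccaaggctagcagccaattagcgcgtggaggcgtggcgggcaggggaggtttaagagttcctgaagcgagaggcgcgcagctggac
Hey2: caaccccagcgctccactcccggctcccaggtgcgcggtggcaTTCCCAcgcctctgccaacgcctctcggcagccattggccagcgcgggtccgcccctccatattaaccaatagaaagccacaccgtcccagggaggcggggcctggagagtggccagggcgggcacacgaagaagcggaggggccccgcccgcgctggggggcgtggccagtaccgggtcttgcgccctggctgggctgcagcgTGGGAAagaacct

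Hes5 held matches at -226 and -82 from the start site of its window, on opposite strands, Lfng at -135 and -108, and Hey2 at -207 and -3. Both matches of Hes5 and both of Hey2 were of the longer form, and in Lfng only the one nearer the start was. Of the sites that Hes and Hey proteins are known to bind, the E-box CACGTG was found in the window of Lfng alone (7.15% of all windows), where it overlaps the RBPJ match. The related CACGCG was found in Dll1, Jag1, Jag2 and Lfng (9.27%), and CACNAG in Dll1, Lfng and Notch1 (42.5%). A match is a description of the letters and does not show that a protein binds there.

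The first comparison asked in which fraction these genes gave more signal. Since the list was chosen with earlier results of these data known, its counts describe these genes and not the pathway at large. All 12 probes were lower in SG than in OC control explants when the 3 times were averaged, at an adjusted p under 0.05 (limma over all 25697 probes, Benjamini-Hochberg), where 12% of all probes were lower. The median difference of the 12 probes was -0.733 and that of all probes -0.00504. Jag1 and Hes5 differed most, Notch1, Hey1, Hey2, Heyl and Lfng by -0.57 to -0.97, and Jag2, Dll1 and Hes1 by -0.18 to -0.27. The control arrays of the fractions did not overlap for 6 probes, those of Notch1, Hey1, Heyl, Lfng and both of Hey2, where 2.14% of all probes were separated in this direction.

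Among the ligands, Jag1, which marks supporting cells and the sensory domain they form from, had a log2 signal of 9.03 to 11.49 in OC (median 10.99, 19 arrays) and 8.09 to 9.97 in SG (median 9.23, 19 arrays). The ranges of the tissues overlapped. In OC control explants Jag1 stood at 10.99, 11.12 and 11.47 at 5 h, at 11.49, 10.76, 11.21 and 9.92 at 24 h and at 10.27, 11.25 and 10.14 at 72 h. In SG control explants it stood at 9.02, 9.22, 9.15 and 9.25 at 5 h, at 9.97 and 9.21 at 24 h and at 9.44, 9.56 and 8.09 at 72 h. The difference of SG from OC was -1.60 (SE 0.26, adjusted p = 1.25e-05).

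Much of the spread of Jag1 went with array batch. Batch was taken from the colour bar of the study's clustering plot, which shows 5 batches of 7 to 8 arrays. In OC the 3 arrays of the blue batch had 9.03 to 9.92 and the other 16 had 10.14 to 11.49. In SG the 4 blue arrays had 8.09 to 8.66 and the other 15 had 8.97 to 9.97. No other member probe was separated by this batch in both tissues. All blue arrays were of replicate number 4, and most were kainate arrays. Batch therefore cannot be told apart from what else these explants shared. The arrays of replicate number 4 in other batches had 11.40 and 10.14 in OC and 9.25 in SG. Within 4 batches the SG minus OC difference of Jag1 in controls ran from -2.26 to -1.15. These values pooled times that were not always the same in both tissues, and in the blue batch rested on 1 array per tissue. With batch in the fit the difference was -1.65 (SE 0.14).

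Jag2, a ligand of nascent hair cells, was dimmer, at 7.94 to 8.85 in OC (median 8.39) and 7.64 to 8.38 in SG (median 8.10), and was above background on 16 of 19 OC arrays and 10 of 19 SG arrays. Its difference of SG from OC was -0.25 (SE 0.09, adjusted p = 0.0438). That call was lost with another background correction (neqc), with the arrays of the compared groups only, and in 9 of 19 fits that left out 1 array. Dll1, another ligand of nascent hair cells, was above background on 3 OC arrays and 1 SG array. Its difference of -0.18 (SE 0.05, adjusted p = 0.0105) therefore lies between signals near background, and no fold is given for it. With batch in the fit Dll1 was not called, at -0.14 (SE 0.06, adjusted p = 0.105), and the count of members lower in SG controls was 11.

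Notch1, the receptor carried by supporting cells, was well above background on all 38 arrays, at 11.63 to 12.27 in OC (median 12.04) and 10.91 to 11.95 in SG (median 11.45). In controls the 10 OC arrays lay above the 9 SG arrays, with a difference of -0.57 (SE 0.09, adjusted p = 1.3e-05). Lfng adds sugars to Notch receptors and so shifts which ligands they answer to. Its signal was 8.16 to 8.56 in OC (median 8.35), above background on all 19 arrays, and 7.43 to 8.08 in SG (median 7.63), above background on 0 of 19. The highest SG array lay below the lowest OC array. The difference was -0.65 (SE 0.06, adjusted p = 5.44e-10), and since SG was not well above background the fold is a bound, at least 1.14-fold lower in SG controls and at least 1.19-fold lower in SG kainate explants. Such bounds set the dim side at the higher of its own signal and the lowest signal above background on each array.

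Of the Hes genes, Hes5, the target most tied to Notch activity in cochlear supporting cells, had a signal in OC of 8.31 to 11.32 (median 10.08, probe 1) and 7.65 to 10.53 (median 9.47, probe 2). In SG it had 7.54 to 8.65 (median 7.99) and 7.41 to 8.21 (median 7.68), above background on 8 and 3 of 19 arrays. It was lower in SG controls by -1.58 (SE 0.15, adjusted p = 5.15e-10) on probe 1 and by -1.47 (SE 0.11, adjusted p = 6.27e-12) on probe 2. No SG control array was above background on probe 2, for which the bound is at least 2.02-fold lower. Hes1, a repressor used in many tissues, differed less, with 9.94 to 10.71 in OC (median 10.46), 9.64 to 10.51 in SG (median 10.15) and a difference of -0.27 (SE 0.07, adjusted p = 0.00477).

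Of the Hey genes, Hey1 had 13.68 to 14.25 in OC (median 13.86) and 12.24 to 13.46 in SG (median 12.78), and no array of one tissue reached the range of the other. Its difference in controls was -0.97 (SE 0.09, adjusted p = 2.47e-10). Hey2, which marks pillar cells, the supporting cells that frame the tunnel of Corti, was lower in SG by -0.75 (SE 0.11, adjusted p = 1.17e-06) and -0.72 (SE 0.09, adjusted p = 3.7e-07) on its probes. Its signal in OC was 9.29 to 9.98 on probe 1 and 9.04 to 9.76 on probe 2, and in SG 8.27 to 9.19 and 8.20 to 9.17. Heyl, another Hey family repressor, had 8.24 to 9.60 in OC and 7.40 to 8.36 in SG, where 8 of 19 arrays were above background, and differed by -0.92 (SE 0.11, adjusted p = 6.44e-08). Over all 38 arrays the tissues were separated for Hey1, Hey2 probe 1 and Lfng, 3 of 12 probes, against 1.18% of all probes lower in SG.

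**Figure D1:**
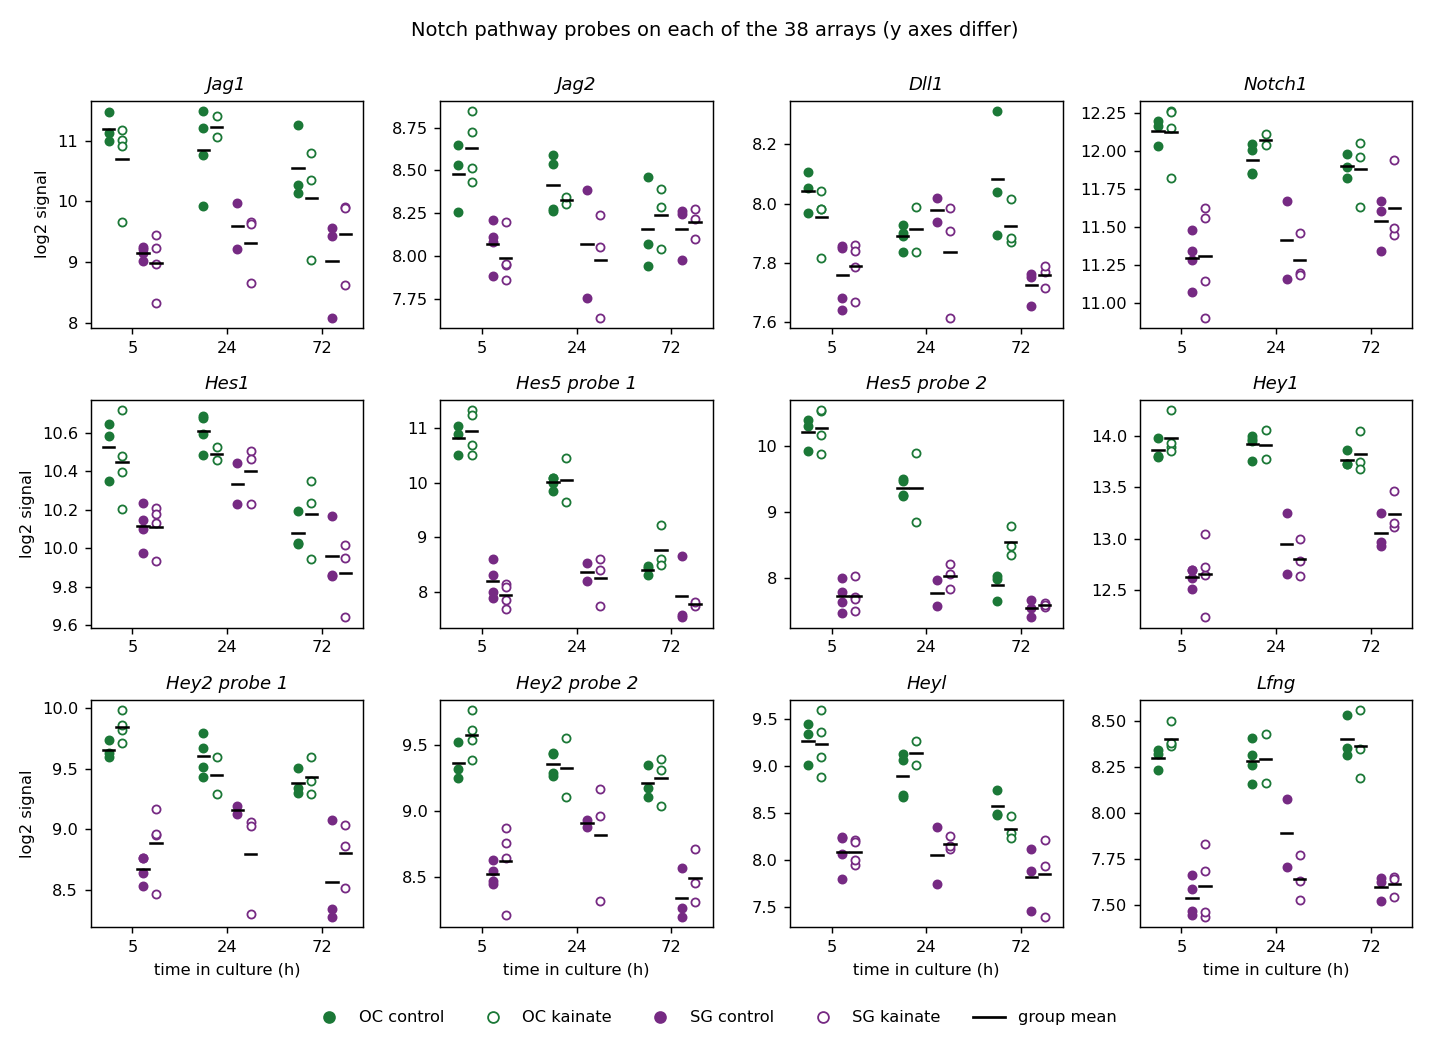
Log2 signal of the 12 probes on each of the 38 arrays (y axis, a scale per panel) against time in culture in hours (x axis). Green points are OC and purple points SG, filled points are control and open points kainate, and each bar is a group mean. For Hes5 the OC points come down from 10.50 to 11.32 at 5 h to 8.31 to 9.23 at 72 h on probe 1, while for Hey1 and Lfng the tissues keep apart at each time.

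After kainate, 11 of the 12 probes were lower in SG (12.1% of all probes), and Dll1 was not called, with -0.14 (SE 0.05, adjusted p = 0.0653). With batch in the fit it was called, at -0.16 (SE 0.06, adjusted p = 0.0317). Hes5 probe 1 had -1.93 (SE 0.15) after kainate. The gap between the treatments was not tested. With the fractions of the same replicate number paired as a block the kainate count was 10, Hes1 no longer being called.

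**Figure D2:**
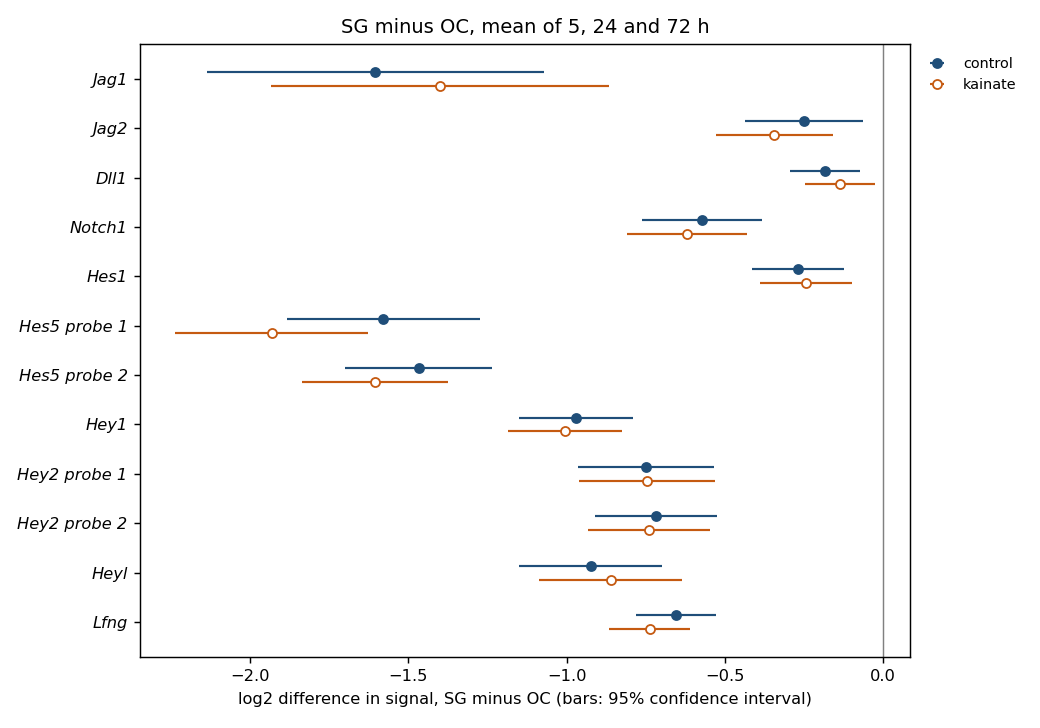
Log2 difference of SG minus OC, averaged over 5, 24 and 72 h, for each probe (x axis, bars are 95% confidence intervals), in control (filled) and kainate explants (open). Each estimate lies below 0, from -0.14 for Dll1 after kainate to -1.93 for Hes5 probe 1 after kainate.

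The fractions were also compared at each time in controls. At 5 h 11 probes were lower in SG (7.24% of all probes), with Hes5 at -2.62 (SE 0.24) and -2.47 (SE 0.18), Jag1 at -2.03 (SE 0.42) and Jag2 not called (adjusted p = 0.0651). The bound for Hes5 probe 2 at 5 h was at least 4.27-fold lower. At 24 h 5 probes were lower (3.99%), both of Hes5 and those of Hey1, Heyl and Lfng. Without SG 24 h control replicate 2 the count was 6 (3.57%), with Jag2 and Notch1 added and Lfng no longer called, at -0.21 (adjusted p = 0.51). At 72 h 7 probes were lower (5.85%), those of Jag1, Dll1, Hey1, Heyl, Lfng and both of Hey2. Heyl was above background on 0 of the 3 SG arrays then, and was at least 1.3-fold lower. Hes5 was not among those called, at -0.48 (adjusted p = 0.283) and -0.34 (adjusted p = 0.322).

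The second comparison followed time in culture. In OC, Hes5 fell steeply between 5 and 72 h, Heyl, Hes1 and Jag2 fell by less, and the 5 probes made up the members called (5.58% of all probes were lower). No member rose, where 5.37% of all probes did. The median change of the 12 probes was -0.349 and that of all probes -0.00479.

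On probe 1, Hes5 in OC controls stood at 10.50, 10.90 and 11.04 at 5 h, at 9.85, 9.99, 10.09 and 10.08 at 24 h and at 8.43, 8.47 and 8.31 at 72 h. In kainate explants it stood at 11.32, 10.69, 11.24 and 10.50 at 5 h, at 9.64 and 10.46 at 24 h and at 8.60, 8.50 and 9.23 at 72 h. Every 72 h array lay below every 24 h array, and every 24 h array below every 5 h array.

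With both treatments averaged, Hes5 probe 1 fell by 2.29 on the log2 scale between 5 and 72 h (SE 0.18, 4.88-fold, adjusted p = 1.35e-10) and probe 2 fell by 2.02 (SE 0.13, adjusted p = 4.98e-12). They ranked 6 and 9 among the 25697 probes by size of fall. In controls alone the changes were -2.41 and -2.31, and after kainate -2.16 and -1.73. In controls probe 2 went from above background on 3 of 3 arrays at 5 h to 0 of 3 at 72 h, for which the bound is at least 4.29-fold lower. Both intervals showed part of the fall, with -0.85 (adjusted p = 0.0181) and -0.87 (adjusted p = 0.00138) from 5 to 24 h and -1.44 (adjusted p = 1.25e-05) and -1.15 (adjusted p = 7.04e-06) from 24 to 72 h. Within each of 4 batches the fall from 5 to 72 h was seen, at -2.48 to -1.27 on probe 1 and -2.57 to -1.08 on probe 2.

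The order of the group means of Hes5 probe 1 ran from OC 5 h kainate (10.94 ± 0.40, SD, n = 4) and OC 5 h control (10.81 ± 0.28, n = 3) through OC 24 h kainate (10.05 ± 0.58, n = 2) and OC 24 h control (9.85 to 10.09, n = 4) to OC 72 h kainate (8.78 ± 0.40, n = 3) and control (8.40 ± 0.08, n = 3). The 6 SG groups followed at 7.78 to 8.37. The arrays of kainate and control overlapped at 5 and at 24 h in OC. Those of OC 72 h control lay within the range of the SG arrays.

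Heyl in OC went from 9.45, 9.34 and 9.02 in 5 h controls and 9.36, 9.60, 8.88 and 9.10 in 5 h kainate explants to 8.75, 8.49 and 8.49 in 72 h controls and 8.47, 8.29 and 8.24 in 72 h kainate explants. The 7 arrays of 5 h lay above the 6 arrays of 72 h. The change was -0.80 (SE 0.13, adjusted p = 6.17e-05). Hes1 changed by -0.36 (SE 0.08, adjusted p = 0.00379), and that change lay between 24 and 72 h, at -0.42 (adjusted p = 0.00515), its arrays at 5 and 72 h overlapping. Jag2 changed by -0.36 (SE 0.11, adjusted p = 0.0271). The Jag2 call was lost with another background correction (neqc) and in 6 of 13 fits that left out 1 array. At 72 h Jag2 was above background on 1 of 3 control and 2 of 3 kainate arrays. Within 4 batches the changes were -1.21 to -0.65 for Heyl, -0.40 to -0.16 for Hes1 and -0.44 to -0.29 for Jag2. The arrays of 5 and 72 h did not overlap for 3 probes, both of Hes5 and that of Heyl, where 2.14% of all probes were separated in this direction.

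The remaining members in OC did not pass the test. Jag1 had -0.63 (adjusted p = 0.237), and with batch in the fit it was called, at -0.55 (SE 0.15, adjusted p = 0.014), as was Hey2 probe 1, at -0.29 (SE 0.10, adjusted p = 0.0489). Of the others, Hey2 had -0.34 (adjusted p = 0.079) and -0.24 (adjusted p = 0.209), Notch1 -0.24 (adjusted p = 0.206), Hey1 -0.12 (adjusted p = 0.602), Lfng 0.03 and Dll1 0.00. By interval, 2 probes were lower from 5 to 24 h (0.483% of all probes), both of Hes5, and 4 from 24 to 72 h (1.1%), both of Hes5 and those of Hes1 and Heyl.

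Markers of supporting cells, which carry Hes5, were read on the same OC arrays. Of 17 such markers 1 was higher and 3 were lower at 72 than at 5 h, and their mean log2 signal was 11.34 to 11.53 on the 5 h arrays and 11.14 to 11.42 on the 72 h arrays, a change of -0.178. Taken relative to that mean, Hes5 probe 1 went from between -0.95 and -0.15 at 5 h to between -2.84 and -1.96 at 72 h, a change of -2.12, and probe 2 changed by -1.85. Heyl changed by -0.62 on the same scale. Of hair cell markers 3 of 17 were higher and 0 lower, of neuron markers 0 of 19 higher and 3 lower, of macrophage markers 2 of 12 higher, and of fibroblast markers 2 of 10 higher. The part of these cell types in these changes was not tested.

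**Figure D3:**
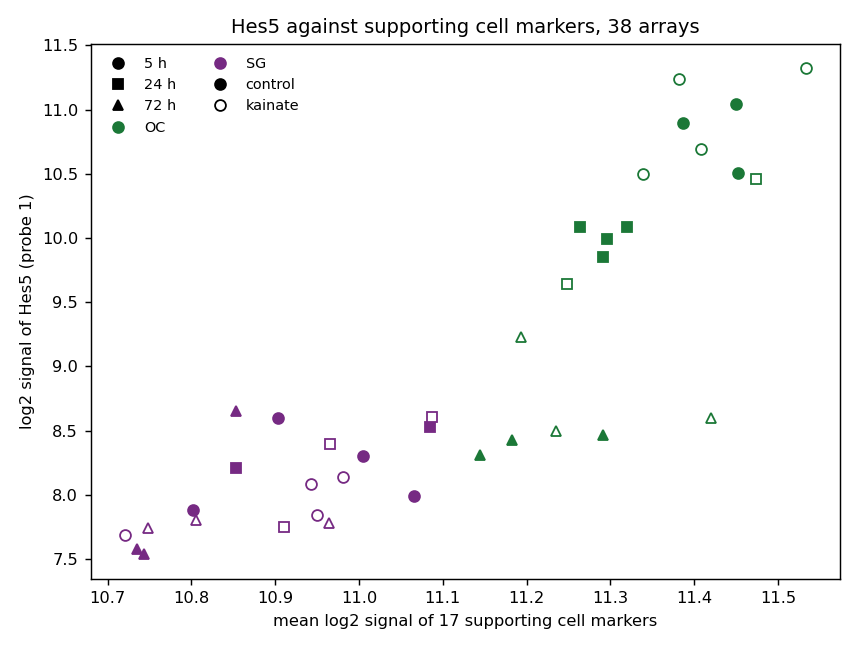
Log2 signal of Hes5 probe 1 (y axis) against the mean log2 signal of 17 supporting cell markers (x axis) on the 38 arrays, with tissue by colour, time by shape and treatment by fill. The OC arrays of 72 h (green triangles) sit at 8.31 to 9.23 on the y axis, below the OC arrays of 5 and 24 h, at marker means of 11.14 to 11.42 that overlap theirs.

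In SG, Hey1 rose and no member fell between 5 and 72 h, 1 probe of 12 where 12.8% of all probes were higher and 12.1% lower. The count of members called therefore did not exceed the share of all probes. With array medians aligned in place of quantiles, Hey1 had 0.33 (adjusted p = 0.0877) and was not called, while Hes1 was called lower. Hey1 stood at 12.51, 12.70, 12.62 and 12.69 in the 5 h controls, at 13.25 and 12.65 in the 24 h controls and at 13.25, 12.97 and 12.93 in the 72 h controls. After kainate it stood at 12.64, 12.72, 13.04 and 12.24 at 5 h, at 12.99, 12.78 and 12.64 at 24 h and at 13.46, 13.12 and 13.15 at 72 h. In controls and in kainate explants alike the 72 h arrays lay above the 5 h arrays, although over both treatments one 5 h kainate array reached into the 72 h range. The change was 0.50 (SE 0.10, 1.42-fold, adjusted p = 0.000262), with 0.42 in controls (adjusted p = 0.043, 8.18% of all probes higher) and 0.58 after kainate (adjusted p = 0.00432, 7.25% higher), and 0.32 to 0.81 within 3 batches.

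Notch1 in SG had a change of 0.28 (SE 0.11, adjusted p = 0.0516) and Hes1 one of -0.20 (adjusted p = 0.0769). With batch in the fit Notch1 was called, at 0.36 (SE 0.09, adjusted p = 0.00396), and so was Jag1, at 0.48 (SE 0.16, adjusted p = 0.0255), which had 0.18 without it (adjusted p = 0.762), while Heyl was called lower, at -0.33 (SE 0.11, adjusted p = 0.035). Hes5 in SG, near background at each time, had -0.22 (adjusted p = 0.429) and -0.16 (adjusted p = 0.435). Of the hair cell markers in SG, 6 of 17 were higher and 2 lower at 72 than at 5 h. Supporting cell markers went both ways, 5 of 17 higher and 5 lower. Their group mean went from 10.94 to 10.78 in controls and from 10.90 to 10.84 after kainate. That of the hair cell markers went from 8.73 to 8.74 in controls and from 8.66 to 8.80 after kainate. Of the other markers, 13 of 19 for neurons and 8 of 11 for endothelium were lower. The mean log2 signal on the SG arrays ran from 8.50 to 9.28 for hair cell markers and from 10.72 to 11.09 for supporting cell markers. The part of these cells in the rise of Hey1 was not tested.

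Over the shorter intervals in SG, 0 probes were called from 5 to 24 h (limma, 3.37% of all probes in either direction), and 4 had an unadjusted p under 0.05, those of Hes1, Hey1, Lfng and Hey2 probe 2. Without SG 24 h control replicate 2 the count was also 0. From 24 to 72 h Hes1 was lower by -0.45 (SE 0.09, adjusted p = 0.000919) and Hey2 probe 2 by -0.44 (SE 0.12, adjusted p = 0.0147), 2 probes where 5.41% of all were lower. Without SG 24 h control replicate 2, Hes1 was lower by -0.51, Hey1 was higher by 0.42 (adjusted p = 0.0271) and Hey2 probe 2 was not called (adjusted p = 0.0556).

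The change from 5 to 72 h was then compared between the tissues. It was more positive in SG than in OC for 5 probes (4.99% of all probes), with a difference of 2.07 (SE 0.25, adjusted p = 4.75e-07) and 1.86 (SE 0.19, adjusted p = 2.8e-08) for Hes5, 0.63 (SE 0.15, adjusted p = 0.00376) for Hey1, 0.52 (SE 0.15, adjusted p = 0.0255) for Notch1 and 0.50 (SE 0.15, adjusted p = 0.0262) for Jag2. Heyl had 0.54 (adjusted p = 0.0553). With batch in the fit Heyl and Jag1 were also called, with differences of 0.53 (SE 0.14, adjusted p = 0.0116) and 1.03 (SE 0.20, adjusted p = 0.000526). With array medians aligned the call was kept by both probes of Hes5 and by no other member, and without SG 72 h control replicate 2 there were 3 calls, both probes of Hes5 and Hey1. Since Hes5 in SG lay near background at 5 h, a fall there of the size seen in OC was not measurable.

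**Figure D4:**
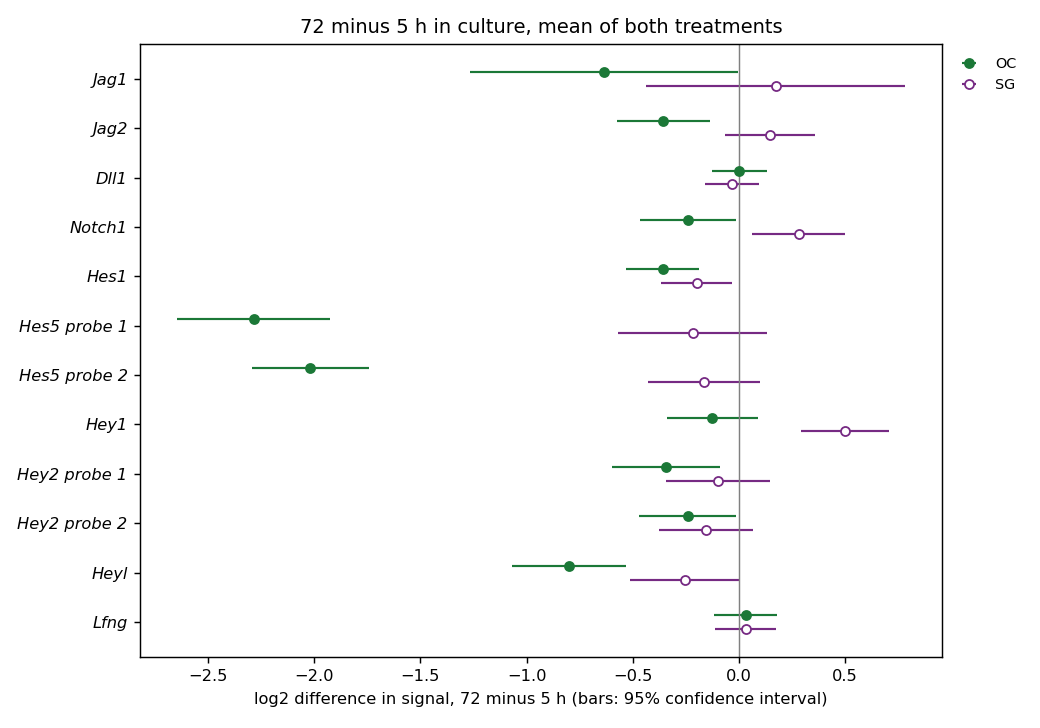
Log2 difference of 72 minus 5 h in culture for each probe (x axis, bars are 95% confidence intervals), averaged over control and kainate explants, in OC (filled green) and SG (open purple). Hes5 in OC lies at -2.29 and -2.02, apart from the other estimates, and Hey1 in SG at 0.50.

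The third comparison was that of kainate with control in each tissue at each time, at the unadjusted p under 0.005 of the study's methods. No member probe was called in OC at 5 h (0.136% of all probes called), OC at 24 h (0.272%), SG at 5 h (0.389%), SG at 24 h (1.1%) or SG at 72 h (0.179%). In OC at 72 h (0.257%) 1 was called, Hes5 probe 2, which was higher (0.156% of all probes were higher). With batch in the fit 1 was called in OC at 5 h, Hey2 probe 2, which was higher by 0.35 (SE 0.11). With adjusted p-values 0 of the 72 tests of members passed, where 0.0272% of all probes passed in SG at 24 h and 0 in the other comparisons. At an unadjusted p under 0.05 there were 2 (limma), Hes5 probe 2 in OC at 72 h and Lfng in SG at 24 h, the latter at signals not above background. Without SG 24 h control replicate 2 there were again 0 members called in SG at 24 h, where 0.455% of all probes were.

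Hes5 probe 2 stood at 7.65, 7.99 and 8.04 in OC 72 h controls and at 8.48, 8.35 and 8.79 in OC 72 h kainate explants. It was above background on 0 of 3 control and 3 of 3 kainate arrays. On probe 1 the same explants had 8.43, 8.47 and 8.31 against 8.60, 8.50 and 9.23. The arrays did not overlap on either probe, as on 3.78% of all probes that were higher after kainate. The difference was 0.65 on probe 2 (SE 0.20), at least 1.36-fold higher, and 0.37 on probe 1 (SE 0.26). An exact permutation test of 3 against 3 arrays gave p = 0.1 on each probe (two-sided), the smallest this design allows. On probe 2 the unadjusted p of limma was under 0.005, which made the call, and the adjusted p was close to 1. The call was lost without OC 72 h control replicate 2 or without OC 72 h kainate replicate 4, and within 2 batches the difference was 0.36 and 0.44. Of the supporting cell markers 1 of 17 was higher in the same comparison and 0 were lower. Between SG and OC the effect on probe 2 differed by -0.61, which did not pass. Heyl lay the other way without overlap on the same OC 72 h arrays, at 8.24 to 8.47 after kainate and 8.49 to 8.75 in controls, and was not called.

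For the remaining members, where they were well above background, the data set limits on an effect of kainate. Of 72 intervals (95% confidence, limma) 66 lay within 1 log2 unit of 0. Those that reached beyond it were 5 of Jag1 and that of Hes5 probe 2 in OC at 72 h. Near background a narrow interval sets no limit on a fall, which could not be measured there. This holds for Dll1 (above background on 3 OC arrays and 1 SG array). In SG it also holds for Lfng (0 of 19 arrays), Hes5 (8 and 3 of 19) and Heyl (8 of 19). The estimates of Jag1 ran from -0.50 in OC at 5 h to 0.44 in SG at 72 h, and with batch in the fit from -0.26 in OC at 5 h to 0.50 in SG at 72 h, none of them called. Most arrays of the blue batch, where Jag1 was low, were kainate arrays. The effect of kainate was also compared between the tissues at 5, 24 and 72 h (0.198%, 0.37% and 0.163% of all probes called) and between 24 and 5 h in OC (0.183%) and SG (0.895%). Of these 60 tests of members 0 passed the threshold, and 2 had an unadjusted p under 0.05 (limma), Hes5 probe 2 between tissues at 72 h and Hey2 probe 1 between times in SG. Without SG 24 h control replicate 2, 0 members were called in the comparison of tissues at 24 h (0.257% of all probes) or of times in SG (0.401%), Hey2 probe 1 was no longer under 0.05, and Lfng was in both, at -0.44 and -0.50.

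**Figure D5:**
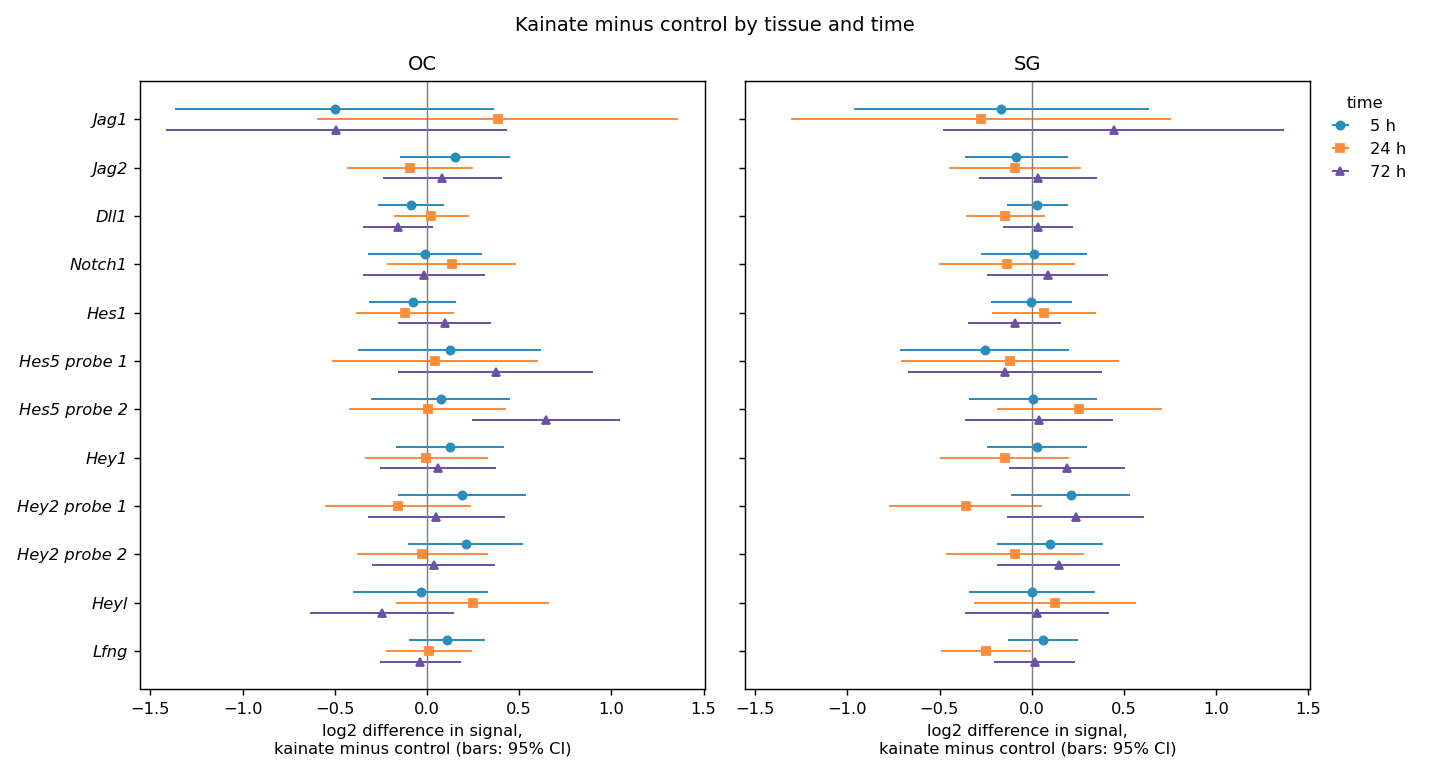
Log2 difference of kainate minus control for each probe (x axis, bars are 95% confidence intervals, CI) at 5 h (circles), 24 h (squares) and 72 h (triangles) in OC (left) and SG (right). All bars cross 0 except those of Hes5 probe 2 in OC at 72 h, which lies at 0.65, and of Lfng in SG at 24 h, and the bars of Jag1 are the widest.

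Other genes of the pathway were read in the same comparisons. Of 61 such genes, 54 had a probe. In controls 6 were higher and 8 lower in SG (11.1% and 12% of all probes), with a median of -0.00425. These counts lay near the shares of all probes. Mfng, a sister enzyme of Lfng, was lower by -1.82 (SE 0.17), Nrarp, a feedback inhibitor that Notch itself turns on, by -0.68 (SE 0.08), Hes6, an antagonist of Hes1, by -0.59 (SE 0.11) and the ubiquitin ligase gene Neurl1a by -0.48 (SE 0.08). Dner, a transmembrane protein of neurons, was higher by 1.03 (SE 0.12) and the atypical ligand Dlk1 by 2.17 (SE 0.27).

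With time in OC 3 of the 54 were higher and 7 lower at 72 than at 5 h (5.37% and 5.58% of all probes). Neurl1a fell by 1.16 on the log2 scale, Dner fell by 0.99, Hes6 fell by 0.66, the corepressor Tle1 fell by 0.61 and the receptor Notch3 fell by 0.45, while the corepressor Cir1 rose by 0.34. In SG 7 were higher and 9 lower (12.8% and 12.1% of all probes). Dlk1 fell by 2.21, Dner fell by 1.45, Fbxw7, which marks the cleaved receptor for destruction, fell by 0.84 and Neurl1a fell by 0.76, and the γ-secretase subunits Ncstn and Psen2 rose by 0.59 and 0.38. Kainate changed 0 of the 54 in each of the 6 comparisons (limma), and 6 of 324 tests had an unadjusted p under 0.05. Notch2 was above background on 0 of 38 arrays. Rita1, which carries RBPJ out of the nucleus, was above background on all 38 and was not called, with 0.15 (adjusted p = 0.146) for SG minus OC and changes with time of -0.02 in OC and -0.04 in SG.

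The genes whose pattern was most like that of each member were taken by Pearson r over the 19 arrays of a tissue among up to 10565 probes above background in OC and 10554 in SG. These r describe arrays that share time, treatment and batch. In OC Hes5 was most like Ppp1r14a (r = 0.950), an inhibitor of myosin phosphatase, the acid-sensing channel gene Asic3 (r = 0.946) and Ly6h (r = 0.945). Each of these 3 also fell between 5 and 72 h in OC, Asic3 by a log2 change of -1.72, Ly6h by -1.23 and Ppp1r14a by -0.84. Jag1 was most like the ephrin gene Efnb2 (r = 0.900), Sox2 (r = 0.897), the transcription factor of the sensory domain, and Vbp1 (r = 0.897), and in SG like Ppp6r3 (r = 0.909), Arntl and Sox2 (r = 0.904). In SG Hey1 was most like Espn (r = 0.898), one of the hair cell markers, and Ush1c (r = 0.893), both of which act in the hair bundle, and Ap1m2 (r = 0.891), a sorting adaptor of epithelial cells. All 3 also rose between 5 and 72 h in SG, by 0.65, 1.07 and 0.73.

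Of the other members in OC, Heyl was most like Matr3 (r = 0.897), Jag2 like Ube2d2a (r = 0.886), Notch1 like Naa15 (r = 0.863), Hes1 like Bcl2 (r = 0.859), Hey2 like 2700097O09Rik (r = 0.841), Lfng like Rpl28 (r = 0.795) and Hey1 like Gtf2e2 (r = 0.756). In SG Hey2 was most like Wdr3 (r = 0.887), Notch1 like Sh3bgrl2 (r = 0.886), Hes1 like Lrrc8c (r = 0.852) and Jag2 like Rffl (r = 0.824). By Spearman correlation 17 of the 45 genes ranked highest stayed among the first 3. Between members in OC, the probes of Hes5 correlated with r = 0.98 and those of Hey2 with r = 0.84. Hes5 probe 1 correlated with Heyl at r = 0.77, which became -0.12 once group means were removed, and with Hes1 at r = 0.74, which became 0.59. Jag1 and Notch1 correlated with r = 0.70, and with 0.73 once group means were removed. Removing group means leaves batch in place. In OC both were low in the blue batch, with means of 9.54 for Jag1 and 11.77 for Notch1 against 10.96 and 12.05 on the other arrays.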

How the data were processed

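RNA of 38 samples in 12 groups was read on Illumina bead arrays. The authors deposited raw signal intensities on a linear scale, a detection p-value per probe and array, and normalized log2 values. Taking log2 of the raw intensities and quantile normalizing gave the deposited log2 values to within 4.99e-09. The labels name limma with no version, and which scanner software was used is not stated. Symbols came from the platform annotation, where 23978 of 25697 probes carry 1 symbol, 0 several and 1719 none. With limma 3.58.1 in R 4.3.3, 12 group means were fitted over all arrays (residual df 26, prior df 5.36), and p-values were adjusted over all probes. Calls were made at an adjusted p under 0.05 for tissue and time, and at an unadjusted p under 0.005 for kainate. The fit was also run on simulated data with independent noise and no batch effect. For SG minus OC in controls it recovered 46% of log2 changes of 0.25 and 88% of those of 0.5.

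The methods divide each explant into both fractions, and the replicate number was taken to pair the tissues. Residuals of SG and OC arrays of one time, treatment and number correlated above 0.1 in 16 of 16 pairs (0.165 to 0.575). Same-numbered arrays of different times, which are different explants, also correlated (0.018 to 0.522), so these values do not show that the number marks an explant. Batch was read by eye from the colour bar of the study's clustering plot. Every probe of the 10 genes is reported. The pathway genes named are up to 6 of smallest p per comparison with Rita1 and Notch2 in any case, and the most alike genes are the first 3 by r for members above background on at least 10 arrays, of which some are given by the first alone. The members and lists were chosen with earlier results of these data known. Alternatives were background correction with neqc (offset 16), a filter on dim probes, replicate and batch blocks, array weights, the compared groups alone, aligned medians, and leaving out each array. Promoters are from RefSeq (GRCm38.p6), and proteins were not analysed here.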

Additional observations from a re-analysis of the deposited data

Results flagged for a closer look

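The change from 5 to 72 h differed between SG and OC, by a test of the difference itself (limma, adjusted p under 0.05), for 5 probes. SG minus OC of that change was 2.07 and 1.86 on the log2 scale for the probes of Hes5, 0.63 for Hey1, 0.52 for Notch1 and 0.50 for Jag2. With array medians aligned, both probes of Hes5 kept the call and the other 3 lost it, and without SG 72 h control replicate 2 Notch1 and Jag2 lost it. The Hes5 values come from a fall in OC, with SG near background at each time, while those of Hey1 join a rise in SG to an OC signal that did not pass the test.

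A pair of arrays lay far from the others of their group. Hey1 in OC 24 h control replicate 2 was 13.75, and the other 3 arrays were 13.95 to 13.99. Lfng in OC 5 h kainate replicate 4 was 8.50, and the other 3 were 8.37 to 8.38. These are 2 of 48 sets of 4 arrays examined, and chance gives about 1 in 20.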

How the results depend on the processing

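Of 43 member differences called, 331 of 344 fits under other settings kept the call, 13 lost it and 0 reversed, and with 1 array left out 721 of 753 kept it, 32 lost it and 0 reversed. The number of member probes called moved by a large share, or to or from 0, in 8 cases, and the cause was not tested. Smaller shifts are given after these as ranges. In OC from 5 to 24 h it was 1 in place of 2 with neqc. In SG from 5 to 72 h the number was 2 in place of 1 with the dim filter, 2 with the replicate block and 4 with batch as a block. With aligned medians it stayed at 1 there and is not among the 8, but the call was Hes1, lower, in place of Hey1, higher. With batch as a block it was 1 in place of 0 in SG from 5 to 24 h and 1 in place of 0 for kainate in OC at 5 h, both times Hey2 probe 2. With aligned medians it was 2 in place of 5, both of Hes5, for the difference between tissues in the change from 5 to 72 h, and 0 in place of 1 for kainate in OC at 72 h. Other settings gave 11 to 12 for SG against OC in controls and 10 to 12 after kainate, 3 to 5 in OC from 24 to 72 h and 4 to 7 from 5 to 72 h. They gave 2 to 3 in SG from 24 to 72 h, and up to 7 for the difference between tissues in the change from 5 to 72 h.

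Leaving out 1 array at a time gave 11 to 12 calls for SG against OC in controls and 11 to 12 after kainate. In OC it gave 1 to 2 from 5 to 24 h (1 without 5 h control replicate 2 or 24 h kainate replicate 3), 3 to 4 from 24 to 72 h and 4 to 5 from 5 to 72 h. In SG it gave 0 to 1 from 5 to 24 h (1 without 24 h kainate replicate 4), 1 to 4 from 24 to 72 h (1 without 24 h kainate replicate 1 or 72 h kainate replicate 3, 4 without 24 h kainate replicate 4 or 72 h control replicate 2) and 1 to 3 from 5 to 72 h. The last was 3 without 72 h kainate replicate 1 and 2 without 5 h control replicate 4, 5 h kainate replicate 1, 2 or 3, 72 h control replicate 3 or 4, or 72 h kainate replicate 4. It gave 3 to 6 for the difference between tissues (3 without SG 72 h control replicate 2), 0 to 1 for kainate in OC at 72 h, and 0 for the other kainate comparisons.

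The replicate number also served as a block for time and kainate, where same-numbered residuals correlated above 0.1 in 26 of 31 and 11 of 15 pairs, and the labels tie the numbers to no shared litter or day, so time and kainate were not treated as paired. With the replicate block the count was 12 for SG against OC in controls, 6 in OC from 5 to 72 h and 5 for the difference between tissues, and it changed no tissue call other than that of Hes1 after kainate. The signals of Dll1, of Lfng in SG and of Hes5 probe 2 in SG lie near background, which limits their folds.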
